A study of Homo sapiens with 6 samples.

Results

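The interleukin-6 (IL-6) pathway was described in MOLP-8, a human myeloma line kept in culture, through 10 genes: IL6, IL6R, IL6ST, JAK1, JAK2, STAT3, SOCS3, IL10RA, IL21R and IL2RG. They were chosen by name, as the ligand, receptors and signalling proteins of the main growth cytokine of myeloma together with related cytokine receptors, and all 10 were found once each among 57861 genes with a usable value. RNA sequencing had been done on 6 libraries. In 3 of them the cells carried a scrambled guide and in the other 3 a guide against LIN28B, each delivered in the lentiCRISPRv2 vector, which also encodes the Cas9 nuclease, and followed by puromycin selection. LIN28B blocks the maturation of let-7 microRNAs. Whether a group was a pool of cells or 1 clone, and whether its libraries came from separate cultures, is not given in the sources used here, so p-values measure the spread between these libraries only, which may be technical.

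IL-6 acts by binding IL6R, a receptor chain with no signalling activity of its own. The pair then joins IL6ST, the shared signal-transducing chain known as gp130. The Janus kinases JAK1, JAK2 and TYK2 sit on gp130 and phosphorylate it, which recruits the transcription factor STAT3, and phosphorylated STAT3 dimers enter the nucleus. SOCS3 is switched on by STAT3 and shuts the receptor down. In bone marrow the cytokine is made largely by stromal cells, and plasma cells and myeloma cells respond to it with growth and survival. IL10RA and IL21R are receptor chains of interleukin-10 and interleukin-21, which also signal through STAT3, and IL2RG is the common gamma chain that pairs with IL21R and with the receptors of interleukins 2, 4, 7, 9 and 15.

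The link from LIN28B to these genes that can be read from sequence is the let-7 seed, the stretch of bases 2 to 8 that pairs with target mRNAs. RefSeq (GRCh38.p14) lists 9 mature sequences of the family, and all share 1 seed. A few are shown, with the seed in capitals, because any match in the 10 genes is a match to every one of them:
hsa-let-7a-5p: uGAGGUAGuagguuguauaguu
hsa-let-7b-5p: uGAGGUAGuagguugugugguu
hsa-let-7i-5p: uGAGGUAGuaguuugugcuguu
hsa-miR-98-5p: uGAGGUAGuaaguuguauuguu

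The longest annotated 3′ UTR of each gene (GENCODE 29) was searched on the transcribed strand for CTACCTCA, CTACCTC and TACCTCA, the overlapping forms of the seed match. IL6 and IL6R held 1 match each, both the 7-base form that pairs with bases 2 to 7 and ends in A, and the other 8 genes held none. The 22 bases ending in each match are shown with the match in capitals:
IL6: tggaaagtgtaggctTACCTCA
IL6R: atctgttaaatagaaTACCTCA

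The 22 bases shown for IL6 lie at chr7:22731874-22731895 on the plus strand of GRCh38, and the first matched base is base 316 of a 429-base 3′ UTR. The 22 bases shown for IL6R lie at chr1:154469227-154469248, also on the plus strand, and the first matched base is base 3862 of a 4070-base 3′ UTR. A match was present in 15.7% of the longest 3′ UTRs of 19133 protein-coding genes. Among 3′ UTRs between 0.5 and 2 times the length of each gene's own, the share was 5.48% for IL6 and 30.9% for IL6R. The STAT motif TTCNNNGAA, which reads the same on both strands, was found in 0 of the 16 RefSeq promoter windows of the 10 genes, each running from 250 bases before to 50 bases after a start site, against 7.66% of all 35116 such windows. A match or its absence describes these letters only.

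Levels are in FPKM, which divides the fragments of a gene by its transcript length and by the size of the library, so that genes can be set beside each other. Fragment equivalents estimated from the deposited bounds ranged from 6299758 to 8353323 in the control libraries and from 4800148 to 5587615 in the LIN28B KO libraries. Every KO library was thus shallower than any control, and depth cannot be told apart from group. LIN28B stood at 23.3, 24.3 and 25.5 FPKM in control libraries 1 to 3 and at 8.41, 8.17 and 5.84 FPKM in LIN28B KO libraries 1 to 3, a log2 fold change of -1.66 (adjusted p = 0.0207, limma), so the transcript was reduced and not lost. Leaving out LIN28B KO library 3 kept this call (adjusted p = 0.00957), and leaving out any of the other 5 ended it (0.0675 to 0.185). The defining plasma cell genes were high in all libraries, with SDC1 at 189 to 326 FPKM and XBP1 at 669 to 1049 FPKM, while the T cell gene CD3D and the B cell gene MS4A1 were listed at 0 in all 6. Other genes of those lists were present, with CD4 at 98.2 to 163 FPKM, CD247 at 17.7 to 32.3 FPKM and NCAM1 at 55.4 to 93.4 FPKM in the T and NK cell list and BCL11A at 4.76 to 10.2 FPKM in the B cell list. LIN28B KO library 3 stood apart. Protein-coding genes of 20 to 100 FPKM in control had a median log2 ratio of -0.50 to their control means in it, against -0.07 in both other KO libraries, and the nuclear RNA MALAT1 was at 892 FPKM there and at 259.3 to 331 FPKM in the other 5. Results are therefore given with all 6 libraries and without that one, the latter over protein-coding genes only and called the 5-library fit.

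None of the 10 genes passed the test in either fit. With 6 libraries limma called 0.0949% of 15803 tested genes (Benjamini-Hochberg adjusted p under 0.05) (0.0633% higher and 0.0316% lower) and 0 of the 7 genes that reached 1 FPKM in at least 3 libraries. In the 5-library fit it called 4.09% of 11308 genes and again 0 of the 7. With cyclic loess, a scaling that removes trends with level, the count of members stayed at 0, against 0.702% (0.361% higher) of genes with 6 libraries and 2.25% (1.17% lower) with 5. The smallest adjusted p of a member was 0.306 with 6 libraries and 0.130 with 5. At an unadjusted p under 0.05 stood 1 of 7 in the first fit, against 13.7% of all tested genes, and 2 of 7 in the second, against 22.8%. The median log2 fold change of the 7 was -0.10 with 6 libraries, beside -0.13 over all tested genes, and -0.01 with 5 libraries, beside -0.04.

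**Figure D1:**
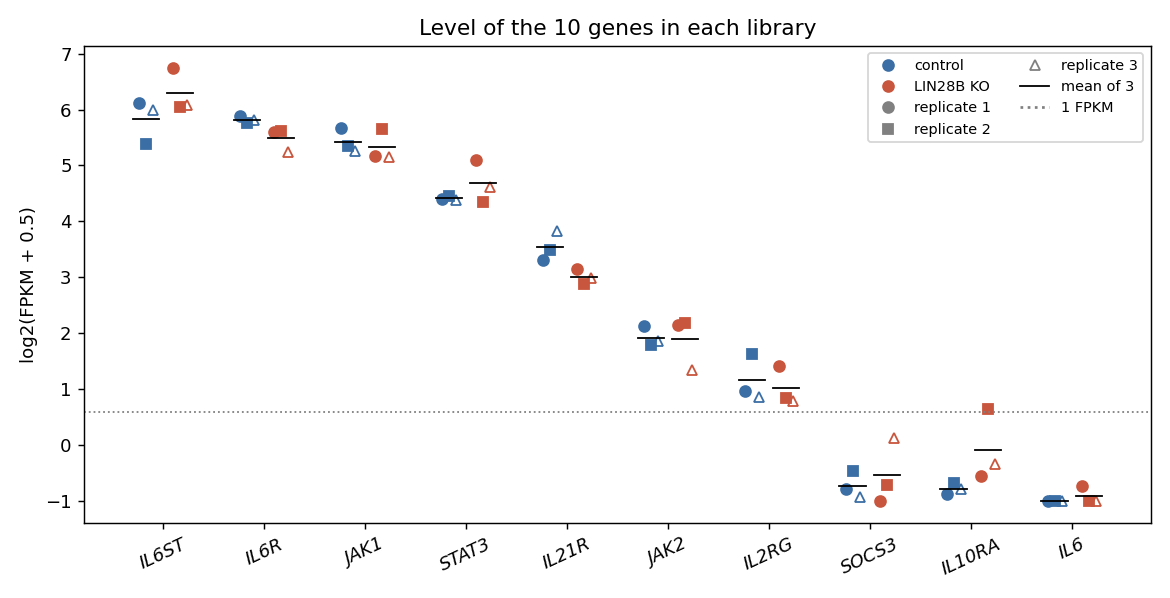
Level of each of the 10 genes in each library, on the scale log2(FPKM + 0.5), ordered by control mean; symbols mark replicates, black bars the mean of 3 and the dotted line 1 FPKM. IL6ST, IL6R and JAK1 lie highest, and SOCS3, IL10RA and IL6 lie below the dotted line in every library except IL10RA in LIN28B KO library 2 (1.06 FPKM).

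The order of the mean levels was the same in both groups except that IL10RA and SOCS3 changed places. In control cells IL6ST led with a mean of 57.9 FPKM, followed by IL6R (56.0 FPKM), JAK1 (42.7 FPKM), STAT3 (20.8 FPKM), IL21R (11.3 FPKM), JAK2 (3.31 FPKM), IL2RG (1.79 FPKM), SOCS3 (0.109 FPKM), IL10RA (0.0826 FPKM) and IL6, which was listed at 0. The control ranges of IL6ST, IL6R and JAK1 overlapped between IL6ST and each of the others, and those of SOCS3 and IL10RA overlapped too. All control values of IL6R lay above those of JAK1, and no other neighbours from JAK1 down to SOCS3 overlapped. Among 19236 protein-coding genes, 90.3% had a lower control mean than IL6ST and 90.0% a lower one than IL6R, against 86.6% for JAK1, 74.7% for STAT3, 63.8% for IL21R, 49.0% for JAK2 and 44.8% for IL2RG. Receptor chains and kinase of the IL-6 pathway were thus present at high levels while the ligand was near or at 0.

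IL6, the ligand (gene ENSG00000136244, chromosome 7 at 22765503 to 22771621 of GRCh37, whole-gene locus as deposited), was listed at 0 in 5 of the 6 libraries. LIN28B KO library 1 held 0.103 FPKM, with deposited bounds of 0 to 0.519 FPKM. None of these estimates was marked as failed, but a value of 0 does not show that the transcript was absent. No fold change is given.

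IL6R, the IL-6 binding chain (ENSG00000160712, chromosome 1 at 154377669 to 154441926), was lower in all LIN28B KO libraries than in any control. Control libraries 1 to 3 held 58.4, 53.9 and 55.6 FPKM of IL6R, and KO libraries 1 to 3 held 48.2, 48.6 and 37.5 FPKM. The groups did not overlap, and library 3 was the lowest. The control mean was 56.0 ± 2.25 FPKM (SD, n = 3), and the KO mean, 44.8 ± 6.34 FPKM (SD, n = 3), was 80.0% of it. Limma gave a log2 fold change of -0.33 (95% confidence interval -0.67 to 0.01, adjusted p = 0.371) with 6 libraries. Without library 3 it was -0.21 (-0.36 to -0.05, adjusted p = 0.130), and with cyclic loess it was -0.12 with 6 libraries and -0.14 with 5. After that scaling the log2 ratios to the control mean were -0.15, -0.14 and -0.06 in the LIN28B KO libraries, and the controls reached down to -0.05.

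IL21R (ENSG00000103522, chromosome 16 at 27413483 to 27462115) was the other tested gene whose groups did not overlap in FPKM. Controls held 9.44, 10.7 and 13.7 FPKM and LIN28B KO libraries 8.35, 6.90 and 7.42 FPKM. Every KO value was below every control, and library 3 was not the extreme one. The means of 11.3 ± 2.19 FPKM (SD, n = 3) and 7.56 ± 0.738 FPKM (SD, n = 3) placed KO cells at 67.1% of control. The log2 fold change was -0.53 (95% confidence interval -0.94 to -0.13, adjusted p = 0.306, limma) with 6 libraries and -0.52 (-0.93 to -0.12, adjusted p = 0.136) with 5. It ranged from -0.65 to -0.39 over the alternatives with 6 libraries. After cyclic loess the log2 ratios to the control mean were -0.38, -0.64 and -0.21 in LIN28B KO libraries 1 to 3. Control library 1 was at -0.23, below KO library 3, so the groups overlapped after that scaling. An exact two-sided permutation test gave p = 0.1 for IL21R and for IL6R alike, the smallest that 3 against 3 libraries allow.

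Lower values without overlap were common in this comparison. They were seen for 2 of the 7 tested genes, against 20.1% of all tested genes, and values higher without overlap for 0 of 7, against 7.61%. Without library 3 the counts were 2 lower, against 26.4%, and 1 higher, against 15.0%, the latter being JAK2.

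The IL21R locus is shared. IL21R-AS1, annotated at 27458990 to 27464714 of chromosome 16 over its higher-coordinate end and named after IL21R as its antisense RNA, had lower values as well, at 5.24, 4.56 and 5.07 FPKM in control and 2.66, 3.29 and 2.10 FPKM in LIN28B KO. Its groups did not overlap either, and limma gave a log2 fold change of -0.79 (adjusted p = 0.253). Strand use in the libraries is not given in the sources used here, so reads of IL21R and IL21R-AS1 in the shared stretch cannot be told apart.

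IL6ST, the gp130 chain (ENSG00000134352, chromosome 5 at 55230923 to 55290821), had the highest mean of the 10 in both groups and the widest spread of the abundant ones. Controls stood at 69.2, 41.3 and 63.3 FPKM and LIN28B KO libraries at 107, 65.8 and 67.5 FPKM. LIN28B KO library 1 was the highest and control library 2 the lowest, and the other 4 lay within 63.3 to 69.2 FPKM, so the groups overlapped. The log2 fold change was 0.46 (95% confidence interval -0.16 to 1.08, adjusted p = 0.435, limma) with 6 libraries and 0.57 (-0.07 to 1.20, adjusted p = 0.263) with 5. It was 0.23 without LIN28B KO library 1 and 0.24 without control library 2 in the 6-library comparison. The deposited bounds lay 29.4% to 41.8% above and below the estimates, against 6.66% to 9.13% for IL6R at a similar level. Within the IL6ST locus lies CTD-2031P19.5 (chromosome 5 at 55231971 to 55237555), which held 18.9, 19.6 and 18.0 FPKM in control and 30.3, 24.6 and 22.4 FPKM in LIN28B KO, without overlap (log2 fold change 0.43, adjusted p = 0.318, limma). Reads of IL6ST and CTD-2031P19.5 cannot be told apart either.

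**Figure D2:**
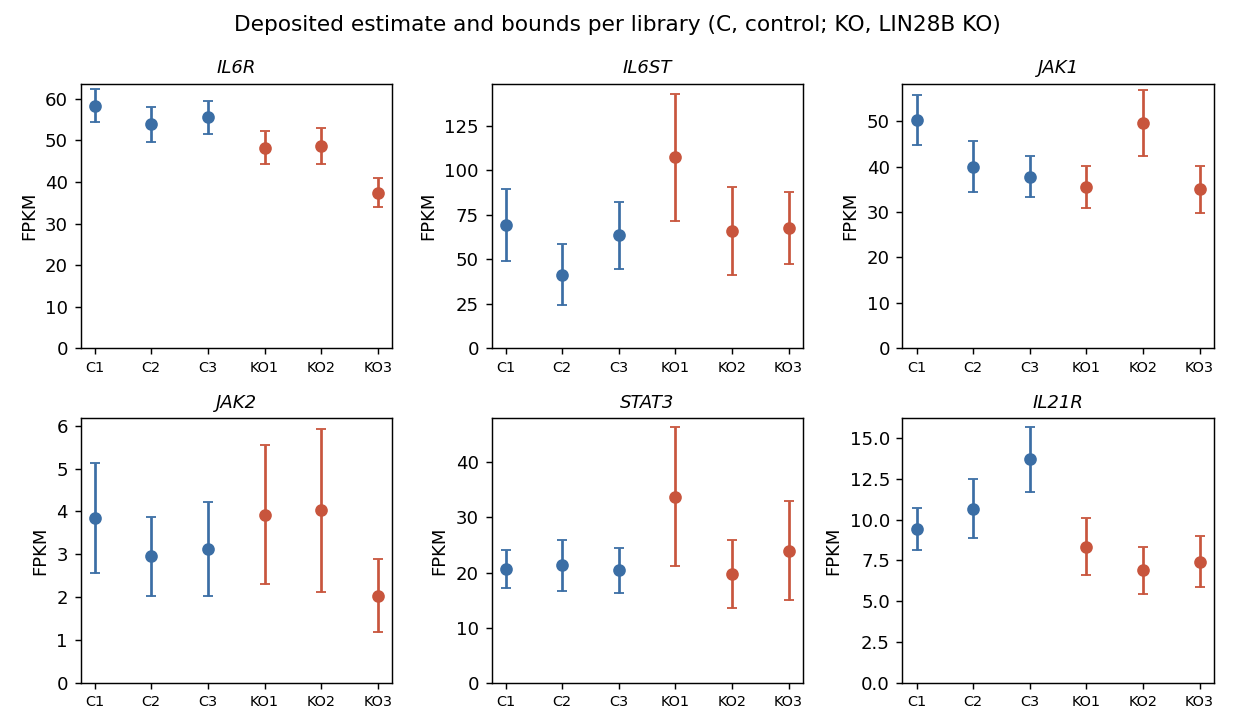
FPKM of 6 genes in each library (C1 to C3, control; KO1 to KO3, LIN28B KO), with bars from the deposited lower to the deposited upper bound, which cover the error of the estimate within a library and not the spread between libraries. IL6R has narrow bounds and lower KO values; for IL6ST and STAT3 the highest value is in LIN28B KO library 1 and has the widest bounds.

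The kinases did not separate the groups. JAK1 (ENSG00000162434, chromosome 1 at 65298912 to 65432187), the main kinase of gp130, stood at 50.2, 40.0 and 37.8 FPKM in control and 35.5, 49.6 and 35.0 FPKM in LIN28B KO. The ranges overlapped over most of their length, and each group had 1 library near 50 FPKM. Its log2 fold change was -0.10 (95% confidence interval -0.54 to 0.34, adjusted p = 0.808, limma), and the sign turned with the scaling, to 0.10 with cyclic loess. JAK2 (ENSG00000096968, chromosome 9 at 4985033 to 5128183) was lower, at 3.85, 2.95 and 3.12 FPKM in control and 3.92, 4.02 and 2.03 FPKM in LIN28B KO. LIN28B KO library 3 was the lowest of all and libraries 1 and 2 the highest. With 6 libraries its log2 fold change was -0.03 (-0.65 to 0.58, adjusted p = 0.958) and without library 3 it was 0.24 (-0.12 to 0.60, adjusted p = 0.395), so the direction for JAK2 rested on that library.

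STAT3 (ENSG00000168610, chromosome 17 at 40465342 to 40540586) was the most even of the 10 in control, at 20.7, 21.4 and 20.4 FPKM, a coefficient of variation of 2.27%. LIN28B KO libraries held 33.8, 19.8 and 24.0 FPKM, a coefficient of variation of 27.9%. Library 1 was above all others and library 2 below all controls. The deposited bounds of library 1 ran from 21.3 to 46.3 FPKM and thus overlapped those of each control, which reached 24.2, 26.0 and 24.5 FPKM. The log2 fold change was 0.27 (95% confidence interval -0.20 to 0.74, adjusted p = 0.520, limma), and in the 5-library fit it was 0.31 (-0.18 to 0.79, adjusted p = 0.419), going to -0.07 when library 1 was also left out.

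SOCS3, the STAT3-induced inhibitor (ENSG00000184557, chromosome 17 at 76352864 to 76356158), was under the filter. It was at 0.0800, 0.221 and 0.0249 FPKM in control, listed at 0 in LIN28B KO library 1 and at 0.111 and 0.590 FPKM in libraries 2 and 3. Every lower bound was 0, and the groups overlapped (exact two-sided permutation p = 0.7). The KO mean was above control with library 3 and below it without (differences of 0.125 and -0.0530 FPKM).

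IL10RA (ENSG00000110324, chromosome 11 at 117857063 to 117872196) was also under the filter, at 0.0454, 0.123 and 0.0798 FPKM in control and 0.179, 1.06 and 0.290 FPKM in LIN28B KO. All KO values lay above the controls, but the lower bound was 0 in all 6 libraries and the upper bound in control library 2, at 0.785 FPKM, lay above 2 of the 3 KO estimates. Of the genes under the filter with a value above 0 somewhere, 10.0% were higher without overlap and 2.13% lower.

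IL2RG (ENSG00000147168, X chromosome at 70327254 to 70331958) passed the filter narrowly, at 1.45, 2.61 and 1.32 FPKM in control and 2.16, 1.29 and 1.22 FPKM in LIN28B KO. The highest value was a control and the second highest a KO library, and the groups overlapped. The log2 fold change of -0.14 had an interval from -0.85 to 0.56 (adjusted p = 0.823, limma), and its deposited bounds lay 72.7% to 127% from the estimates.

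**Figure D3:**
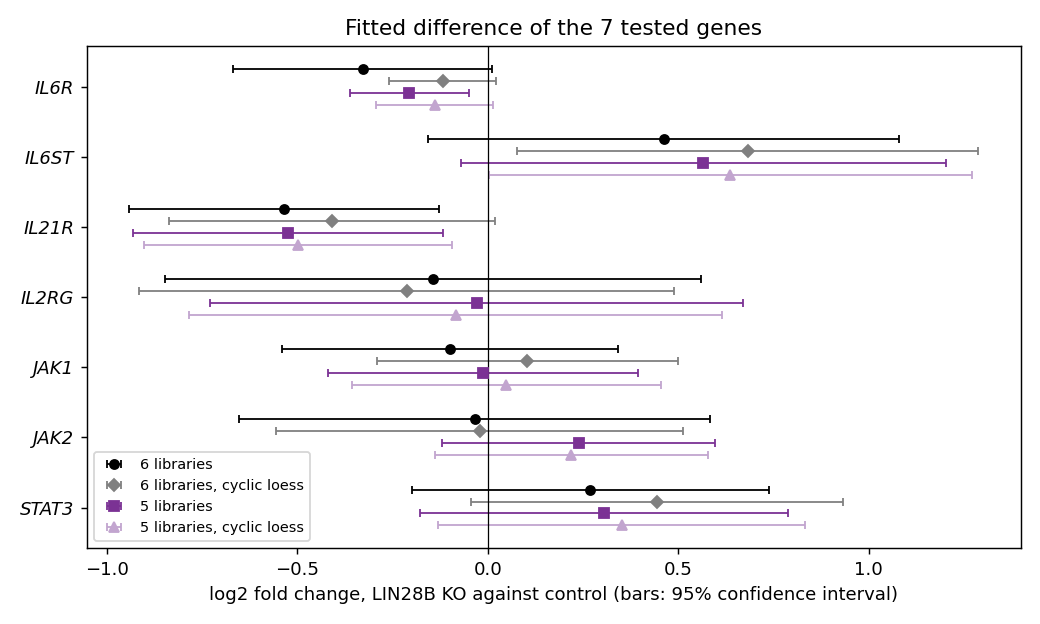
Fitted log2 difference between LIN28B KO and control for the 7 tested genes (points) with 95% confidence intervals (bars), from limma with 6 and with 5 libraries, each without further scaling and with cyclic loess. IL6R and IL21R lie below 0 and IL6ST and STAT3 above 0 in all 4 fits, while JAK1 crosses 0 with the scaling and JAK2 without library 3; no gene has an adjusted p under 0.05 in any of them.

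Other genes were ranked by how closely their values followed IL6R, IL6ST and STAT3. Over the 6 libraries, on log2(FPKM + 0.5) and among 10745 other genes with a mean of at least 5 FPKM, the genes most like IL6R included DHX33 and TBC1D25, each with Pearson r above 0.99, and 1346 genes exceeded 0.95. That shape, highest in controls and lowest in LIN28B KO library 3, was thus widespread. Only 7 genes exceeded 0.95 with IL6ST, led by RP11-195F19.5 (r = 0.98), SHROOM3 and HPS5 (0.97 and 0.96). For STAT3 the number was 13, among them GOLGA4 (r = 0.99) and RP11-294J22.6 (0.98). These values describe 6 points that share the same libraries and depths.

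The wider pathway was read from 6 lists of ligands, receptors, kinases, STATs, inhibitors and targets. With 6 libraries limma called 0 of the 53 tested genes of these lists. An unadjusted p under 0.05 was held by 5, against 13.7% of all tested genes. In the 5-library fit 2 rose and 2 fell among 50, where the background shares were 1.08% higher and 3.02% lower. There 13 had an unadjusted p under 0.05, against 22.8% of all tested genes. Limma called 0 genes when any 1 control library was left out of the 5-library fit (1964 to 2172 at an unadjusted p under 0.05). Each call of that fit below thus rests on all 3 controls, and leaving out a KO library leaves 1 in that group. Some genes below were also called with 6 libraries after cyclic loess.

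Ligands were mostly near or at 0. Of 23 other cytokines, 2 passed the filter and 4 were listed at 0 in every library, IL21, the ligand of IL21R, among them. IL15 stood at 8.25, 8.97 and 7.08 FPKM in control and 8.51, 11.4 and 6.06 FPKM in LIN28B KO (log2 fold change 0.06, adjusted p = 0.914, limma). IL7 was at 0.983 to 1.91 FPKM except in control library 3, where it reached 9.16 FPKM, so that its log2 fold change of -0.65 (adjusted p = 0.639) became 0.20 without that library.

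Among receptors related to gp130, 5 of 9 passed the filter and 0 were called. Ligand-specific chains other than IL6R were under 10 FPKM, with OSMR, the oncostatin M receptor, at 0.00838 to 0.0483 FPKM in control and 0.141 to 0.580 FPKM in LIN28B KO, and CNTFR, the ciliary neurotrophic factor receptor, listed at 0 in 5 of 6 libraries. OSMR was under the filter and not tested, and 10.0% of such genes were higher without overlap. Its control upper bounds of 0.265 to 0.308 FPKM lay above the estimate in KO library 1. ADAM17, the protease that sheds IL6R from the cell surface, had a log2 fold change of -0.20 (adjusted p = 0.557, limma) with 6 libraries and -0.06 (adjusted p = 0.786) with 5. IL27RA, the interleukin-27 receptor, had one of -0.20 (adjusted p = 0.600) and of -0.03 (adjusted p = 0.907).

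Other cytokine receptors had 10 tested members of 21, with 0 called and a median log2 fold change of 0.07 with 6 libraries. IL7R, which pairs with IL2RG, was at 0, 0.195 and 0.404 FPKM in control and 1.04, 1.24 and 4.33 FPKM in LIN28B KO. It passed the filter only through the KO libraries, so that it had to differ, and its fold change is not read as a result. IL15RA, the interleukin-15 binding chain, had a log2 fold change of -0.33 (adjusted p = 0.396, limma) with 6 libraries and of -0.18 (adjusted p = 0.264) with 5. IFNAR1, a chain of the type I interferon receptor, had one of -0.26 (adjusted p = 0.424) and of -0.15 (adjusted p = 0.294). Of 4 marker lists for other cell types, the stromal and myeloid lists had their highest sums in KO library 3, and the T and NK cell and B cell lists did not. The 10 stromal genes summed to 4.89 to 7.78 FPKM in control, to 6.96 FPKM in KO library 1, 7.63 FPKM in KO library 2 and 28.8 FPKM in KO library 3, and the 10 myeloid genes to 2.04 to 3.86 FPKM, to 5.70 and 4.95 FPKM and to 9.94 FPKM. ACTA2, a smooth muscle actin and 1 of the 3 stromal genes tested, was at 1.10, 0.919 and 1.26 FPKM in control and 2.74, 3.45 and 13.6 FPKM in LIN28B KO and rose in the 5-library fit (log2 fold change 1.17, adjusted p = 0.0313, limma). The other stromal genes tested did not pass there: COL1A1, a fibrillar collagen chain, had a log2 fold change of 0.46 (adjusted p = 0.251) and DCN, a matrix proteoglycan, one of -0.27 (adjusted p = 0.708). COL1A1 reached 1 FPKM only in control library 1 and the KO libraries, so it passed the filter mainly through the latter and its fold change is not read as a result. The part of these cell types in the IL7R value was not tested.

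Among the other kinases and STATs, TYK2, named here after its level was seen, was the most abundant Janus kinase of the cells, at 77.4 to 90.8 FPKM in control and 68.3 to 92.2 FPKM in LIN28B KO, above JAK1 in every library. JAK3, the kinase bound by IL2RG, was at 3.97 to 5.07 FPKM over the 6. STAT2, which carries type I interferon signals, was the 1 member that rose in the 5-library fit, from 77.4, 81.9 and 81.8 FPKM to 104.7 and 104.6 FPKM (log2 fold change 0.38, SE 0.06, adjusted p = 0.0297, limma). In library 3 STAT2 was at 72.5 FPKM, below all controls, and with 6 libraries its adjusted p was 0.565. With cyclic loess of those 6 it was 0.0343 (log2 fold change 0.43, limma). The 5-library call was lost when any other library was left out, with log2 fold changes of 0.35 to 0.39. STAT4 was at 0.665, 1.37 and 0.669 FPKM in control and 1.15, 2.14 and 1.58 FPKM in LIN28B KO. It passed the filter mainly through the KO libraries, so its log2 fold change of 0.61 (adjusted p = 0.398, limma) is not read as a result. STAT6 had one of -0.19 (adjusted p = 0.513) with 6 libraries, turning to 0.02 with cyclic loess.

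Of the inhibitors 13 of 18 passed the filter. PTPN2, a phosphatase that acts on JAK1 and STAT3, was at 23.1, 21.8 and 22.7 FPKM in control and 29.5, 30.0 and 24.5 FPKM in LIN28B KO. All KO values of PTPN2 were above the controls, library 3 included, as for 7.61% of all tested genes with 6 libraries. It rose in the 5-library fit (log2 fold change 0.39, SE 0.07, adjusted p = 0.0396, limma; 0.103 to 0.125 with 1 more library left out) and did not pass with 6 libraries (0.30, adjusted p = 0.370). PIAS4, a SUMO ligase of the family that binds STATs, was at 40.5, 45.8 and 46.6 FPKM in control and 16.5, 33.9 and 27.7 FPKM in LIN28B KO. It was lower without overlap, as were 20.1% of all tested genes with 6 libraries, and widely spread. Its log2 fold change was -0.81 (adjusted p = 0.302, limma) with 6 libraries and -0.89 (adjusted p = 0.115) with 5. Leaving out 1 library moved PIAS4 between -0.52 (without LIN28B KO library 1) and -1.03 (without library 2) in the first fit, and between -0.38 and -1.40 for the same omissions in the second. PTPN1, a related phosphatase, had a log2 fold change of -0.21 (adjusted p = 0.517) with 6 libraries and -0.11 (adjusted p = 0.623) with 5.

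STAT3 target genes known from plasma cells gave 0 of 16 called with 6 libraries and 0 higher and 2 lower of 15 with 5. Of all tested genes 1.08% were called higher and 3.02% lower in the 5-library fit, where the list's median log2 fold change was 0.03. PIM1, a survival kinase, was at 25.9, 23.8 and 26.7 FPKM in control and 17.2, 18.5 and 11.3 FPKM in LIN28B KO. MYC, a transcription factor that is also a let-7 target, was at 215, 211 and 224 FPKM and at 171, 174 and 112 FPKM. Its longest 3′ UTR held 0 of the seed matches searched above, and a part of let-7 in its level was not tested. PIM1 and MYC were lower in every KO library than in any control, as were CEBPB, JUNB and CCND1 of this list. With 6 libraries the same held for 20.1% of all tested genes. In the 5-library fit PIM1 fell by 0.50 on the log2 scale (SE 0.09, adjusted p = 0.0366, limma) and MYC fell by 0.33 (SE 0.05, adjusted p = 0.0298). After cyclic loess of those 5 libraries PIM1 had an adjusted p of 0.0533 and MYC one of 0.0693, and leaving out 1 more library gave 0.0961 to 0.125 and 0.0716 to 0.114. CEBPB, an IL-6-responsive transcription factor, had a log2 fold change of -0.51 (adjusted p = 0.392) with 6 libraries and of -0.24 (adjusted p = 0.299) without LIN28B KO library 3. MCL1, the survival protein most tied to IL-6 in myeloma and named here after its level was seen, was at 264, 266 and 279 FPKM in control and 280, 267 and 187 FPKM in LIN28B KO (adjusted p = 0.668 with 6 libraries and 0.830 with 5).

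**Figure D4:**
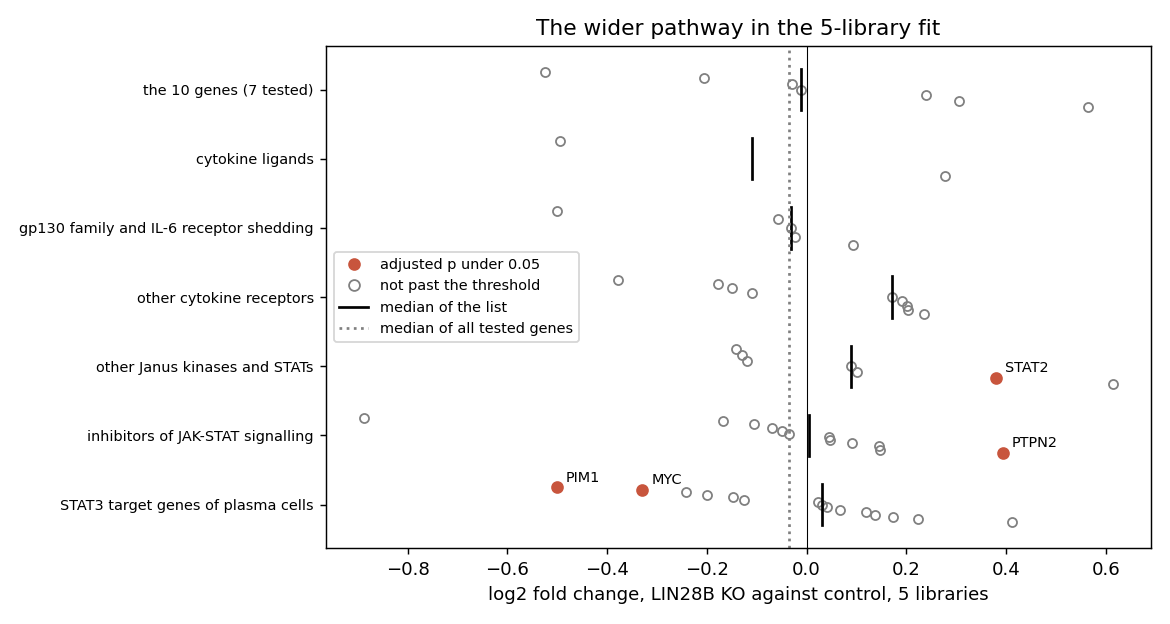
Log2 fold change in the 5-library fit for each tested gene of the pathway lists (points; filled where the adjusted p was under 0.05), with the median of each list (black bar) and of all tested genes (dotted line, -0.04). The 10 genes have 7 tested members spread on both sides of 0, and the filled points are STAT2 and PTPN2 (higher) and PIM1 and MYC (lower).

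Plasma cell markers were checked because the cells that respond to IL-6 in myeloma carry them. Of 12 tested, 2 rose and 0 fell in the 5-library fit, against 1.08% and 3.02% of all tested genes. The log2 fold changes of 6 lay above 0 and those of 6 below. SDC1, CD38, XBP1 and MZB1 were lower in every KO library than in any control, as were 20.1% of all tested genes with 6 libraries. Limma did not call these 4 with 5 libraries (adjusted p 0.0774 to 0.403). SLAMF7, a surface receptor targeted in myeloma, was at 51.6, 41.9 and 49.7 FPKM in control and 92.8, 89.8 and 66.3 FPKM in LIN28B KO (log2 fold change 0.93, adjusted p = 0.0198, limma). TNFRSF17, the B cell maturation antigen, was at 118, 121 and 132 FPKM and at 160, 168 and 126 FPKM (0.41, adjusted p = 0.0329). Leaving out 1 more library gave an adjusted p of 0.0585 to 0.0865 for SLAMF7 and of 0.0601 to 0.117 for TNFRSF17. Among the T and NK cell genes NCAM1, which myeloma cells also carry, rose likewise (61.9 ± 5.59 FPKM in control and 89.0 ± 4.41 FPKM in LIN28B KO, SD, n = 3; log2 fold change 0.56 in the 5-library fit, adjusted p = 0.0309). With all 6 libraries the adjusted p was 0.235 for SLAMF7, 0.420 for TNFRSF17, 0.259 for NCAM1 and 0.291 for ACTA2. With cyclic loess of those 6 it was 0.0143, 0.0390, 0.0671 and 0.204 in the same order (limma). The T and NK cell genes summed to 245 to 257 FPKM in control and 206 to 278 FPKM in LIN28B KO, and the B cell genes to 8.47 to 11.0 FPKM and 6.86 to 9.84 FPKM. In these bulk libraries fewer cells with a transcript and less of it per cell cannot be told apart.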

How the data were processed

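RNA was sequenced from MOLP-8 cells, 3 control and 3 LIN28B KO libraries, grouped by the condition label. The tools were HTSeq, TopHat2 and cutadapt and the build GRCh37, per the submitters' processing notes, which give no roles. The authors deposited an FPKM for each gene with its status and its low and high limits (called bounds here), per the file headers; the tool that wrote them is not given in the sources used here. Rows of 1 gene were summed (108 genes), and 25 genes with a failed estimate were left out, which kept 57861. A limma fit (version 3.58.1, R 4.3.3; variance trend, no covariates, two-sided) was made to log2(FPKM + 0.5) of genes that reached 1 FPKM in 3 or more libraries, and p-values were adjusted over all of them (Benjamini-Hochberg). The 5-library fit left out LIN28B KO library 3 and used protein-coding genes of GENCODE 29. Fold changes on this scale understate those of low genes. Fragment equivalents, the summed squares of 2 FPKM over the distance to the upper bound, leave out genes listed in more than 1 row. Alternatives were other pseudocounts (0.1 and 1), filters, scalings, a replicate block and leaving out each library. The fit was tested on simulated data in which 200 genes had been changed. With 6 libraries it recovered 4% of genes changed by 0.5 on the log2 scale and 60% of those changed by 1. With 5 libraries it recovered 36% and 78%. The changed genes were drawn from the more abundant ones only and were only raised, and no shift of a whole library was simulated. These rates do not cover low genes such as JAK2 and IL2RG. The absence of a call therefore does not show that a gene was unchanged. Sequences came from RefSeq tables and GENCODE 29, both GRCh38, and were not joined to the files' GRCh37 coordinates; a planned search of protein sequences was not run. The members and lists were chosen with earlier results of these data known. Named genes were the 10 members, LIN28B, up to 3 genes of each pathway list by p with 6 libraries, every list gene called in either fit and the 3 closest correlates of IL6R, IL6ST and STAT3; IL21R-AS1, CTD-2031P19.5 and other genes named for their level were added after their values were seen. A few genes named by this rule are not reported here.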

Additional observations from a re-analysis of the deposited data

How the results depend on the processing

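No member was called under any alternative run with 6 or 5 libraries, and the smallest adjusted p was 0.0697, for IL6ST with the replicate block in the 5-library fit. The count of all called genes moved more. With 6 libraries it was 15, and it was 6 without a filter, 9 with FPKM of at least 5, 28 with quantile normalization, 111 with cyclic loess and 4 to 64 when 1 library was left out. In the 5-library fit it was 463, and it was 24 without a filter, 247 with quantile normalization, 254 with cyclic loess, 64 over all genes and 0 whichever library was left out (limma, 1964 to 2349 at an unadjusted p under 0.05). Where 1 KO library is left, it is assumed to vary like the controls. Lists changed with cyclic loess as follows: STAT3 targets had 0 called in the 5-library fit, and with 6 libraries other kinases and STATs had 1 and plasma cell markers 2.

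Directions turned for values near 0. JAK1 went to 0.0524 (quantile) and 0.10 (cyclic loess) with 6 libraries and to 0.0399 and 0.0487 with 5; with 1 library left out it ran from -0.26 to 0.0235 and from -0.25 to 0.23. Over such omissions JAK2 ran from -0.18 to 0.24 with 6 libraries, IL2RG from -0.34 to 0.10 with 6 and -0.31 to 0.26 with 5, STAT3 from -0.0746 to 0.68 with 5, IL15 from -0.16 to 0.28 with 6, IL7 from -1.15 to 0.20 with 6 and -0.99 to 0.36 with 5, ADAM17 from -0.11 to 0.0064 with 5 and IL27RA from -0.0852 to 0.0368 with 5. STAT6 went to 0.0208 with cyclic loess on 6 libraries. The SOCS3 difference in mean FPKM went to -0.0530 without LIN28B KO library 3. The causes were not tested.

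No pairing by replicate number was seen. Deviations from the group means of same-numbered libraries correlated at -0.02, 0.04 and -0.03, and those of other pairs at -0.08 to 0.09. LIN28B KO libraries 1 and 3 correlated best with another number and library 2 with its own. Deviations from a mean of 3 sum to 0 within each group, so these correlations cannot exclude a pairing. With the replicate block limma called 13 genes with 6 libraries and 0 with 5 (2065 at an unadjusted p under 0.05), and IL7 went to 0.36 in the latter. Genes near or under 1 FPKM (IL6, SOCS3, IL10RA and IL2RG) had the widest bounds relative to their estimates among the members.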

Other observations

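Pathway genes under the filter also held values worth setting down. Of 42 such genes with a value above 0 in at least 1 library, 8 were higher and 2 lower in LIN28B KO without overlap, against 10.0% and 2.13% of all genes under the filter. IL2RB, which pairs with IL2RG in the interleukin-2 and interleukin-15 receptors, was 1 of the lower ones, at 1.16, 0.795 and 1.26 FPKM in control and 0.494, 0.182 and 0.426 FPKM in LIN28B KO. The other was CNTF, a ligand that signals through gp130, at 0.513, 0.610 and 0.727 FPKM against 0.332, 0.319 and 0.246 FPKM. IL10, the ligand of IL10RA, was higher, at 0.256, 0.136 and 0.239 FPKM against 0.618, 0.323 and 1.76 FPKM. BCL6, a germinal centre repressor and STAT3 target, was at 0.579, 0.803 and 0.837 FPKM against 1.39, 0.998 and 1.81 FPKM. SOCS1, an inhibitor related to SOCS3, was at 0.309, 0.146 and 0.190 FPKM against 0.314, 0.570 and 0.476 FPKM. These genes were chosen after their values were seen and were not tested. Bounds of some control and KO libraries overlapped for each of them. SOCS1 bounds were 0.0920 and 0.536 FPKM for KO library 1 and 0.130 and 0.488 FPKM for control library 1. For IL10 the KO library 3 lower bound of 0.785 FPKM exceeded the upper bound of control library 3 (0.540 FPKM). Among 57753 genes, more reached 1 FPKM in each KO library (15932, 15922 and 17676) than in any control (15430, 15368 and 15356). Any part of this in the counts above was not tested.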
